A study of Mus musculus with 10 samples.

Results

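The course of Ago2 knockdown (kd) mouse embryos from the middle 2-cell to the early 4-cell stage was followed in 4 RNA-seq libraries, 2 from 2-cell and 2 from 4-cell Ago2 kd embryos, out of the 10 libraries of the series. Zygotes had been injected with siRNA against Ago2 together with an antibody against AGO2, and embryos were collected at 40 h (2-cell) and 55 h (4-cell) after hCG, the hormone used to induce ovulation; control embryos of the same ages received scrambled siRNA, and uninjected MII oocytes were taken at 16 h. The sample labels name ICR as the strain and embryo blastomeres as the tissue, the Methods give crosses of F1 mice for the embryos, and the zona pellucida was removed before lysis. How many embryos were pooled in a library, and whether the 2 libraries of a group came from separate injections, is not given in the sources used here, so p-values measure only the spread between these libraries. Genes were taken along where they had an FPKM (a fragment count corrected for transcript length and library size) of 1 or more in at least 2 of the 4 Ago2 kd libraries, which held for 6128 of the 21437 genes in the table. Levels of the Ago2 transcript were not analysed here.

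An oocyte enters fertilization with a stock of maternal mRNAs that it accumulated while it grew. In the mouse most of this stock is cleared by the 2-cell to 4-cell stage, while the embryo's own genome becomes active, with a major burst of transcription at the 2-cell stage. AGO2 is the Argonaute protein that binds small RNAs and can cleave the transcripts they pair with, and it is itself supplied by the oocyte. The comparison of 4-cell with 2-cell Ago2 kd embryos therefore asks which transcripts are cleared and which are activated in embryos injected against Ago2 as zygotes.

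The FPKM summed to 178681 and 205895 in the 2-cell and to 231654 and 326352 in the 4-cell Ago2 kd libraries, and depth is unknown because FPKM hold no read counts. Mitochondrial genes took 3.04% and 4.2% of the sum at the 2-cell and 11.1% and 13% at the 4-cell stage. Rows of ribosomal and other structural RNAs took 0.556% and 0.838%, then 2.05% and 3.05%. The replicates of 4-cell Ago2 kd embryos were the least alike of the 5 groups, with Pearson's r of 0.793 across genes against 0.824 to 0.942 in the other groups, a description since genes are not replicates. Replicate 1 of the 4-cell Ago2 kd group had less than 0.1 FPKM for 416 of the 2845 genes that exceeded 10 FPKM in replicate 2 (14.6%), whereas this share was 1.61% to 5.81% in the other 9 libraries. Exact zeros were frequent and also hit genes that every cell uses, such as Eif3e, a subunit of the translation initiation factor that recruits the small ribosomal subunit. A zero is therefore given as listed at 0, with the value of each library and no fold change. Markers of cumulus and granulosa cells were near absent, since 4 of the 18 were in the table, none passed the limit of 1 FPKM in 2 libraries and their highest value in an Ago2 kd library was 1.75 FPKM. In bulk libraries fewer embryos in a library and less RNA per embryo cannot be told apart.

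Genes rose and fell in similar numbers. Of the 6128 genes, 1816 were higher (29.6%) and 1505 lower (24.6%) in 4-cell than in 2-cell Ago2 kd embryos at a Benjamini-Hochberg adjusted p under 0.05 by limma on log2(FPKM + 1), and 2807 were not called. With 1 library left out the calls numbered 1269 to 1681 and 1214 to 1337. The median change was 2.68 log2 units among the higher and -2.76 among the lower genes, and 758 and 671 of them changed by more than 3 log2 units. In every called gene the 2 libraries of one stage lay apart from those of the other, which also held for 42.3% of all genes tested in the upward and 33.5% in the downward direction. The median over all genes tested was 0.35 log2 units, and it became 0.09 when each library was scaled to the same FPKM sum. The log2(FPKM + 1) scale understates the change of genes with low values. Of the higher genes, 751 were below 1 FPKM in both 2-cell libraries and 217 were listed at 0 in both; among the lower genes, 904 had less than 1 FPKM in both 4-cell libraries and 506 were listed at 0 in both. Such genes passed the limit on low values through 1 stage only, so that their difference follows in part from the rule.

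Transcripts made by the growing oocyte headed the genes that fell. Rfpl4, an oocyte-specific RING finger gene (GRCm38 chr7:5109787-5116950), stood at 2637 and 3299 FPKM in the libraries of 2-cell Ago2 kd embryos and then at 0 and 0 FPKM in the 4-cell libraries (adjusted p = 1.53e-06). Wee2, the kinase that keeps oocytes in meiotic arrest (chr6:40439088-40466813), had 572 and 556 FPKM and was then listed at 0 in both (adjusted p = 7.74e-06). Both stages were thus separated without overlap, and no 4-cell library held a detected transcript of either.

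Bcl2l10, an anti-apoptotic BCL2 relative abundant in oocytes (chr9:75347758-75351632), went from 4252 and 4713 to 12.2 and 4.07 FPKM, a 552-fold fall of the group means and a log2 change of -9.10 (SE 0.49, adjusted p = 3.88e-05). Btg4, which recruits the CCR4-NOT deadenylase to maternal mRNAs (chr9:51060901-51119875), went from 6520 and 7517 to 31.1 and 27.4 FPKM, 240-fold lower (log2 change -7.86, SE 0.18, adjusted p = 1.53e-06). AU022751 on the X chromosome went from 2475 and 1788 to 3.91 and 3.66 FPKM, 563-fold lower (adjusted p = 1.18e-05). These 3 transcripts were still measurable in both 4-cell libraries.

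The other leading fallers had between 257 and 1977 FPKM in the 2-cell libraries and at most 8.19 in a 4-cell library. They were C87977, Nlrp4f, Oog1, the integrin subunit Itga9, the oocyte growth factor Bmp15, Nlrp9c, Ccdc69 and the gamma tubulin Tubg2, with adjusted p from 7.74e-06 to 0.000365. C87977, Nlrp4f, Oog1 and Nlrp9c belong to families with near-identical copies, between which reads may have been split.

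**Figure D1:**
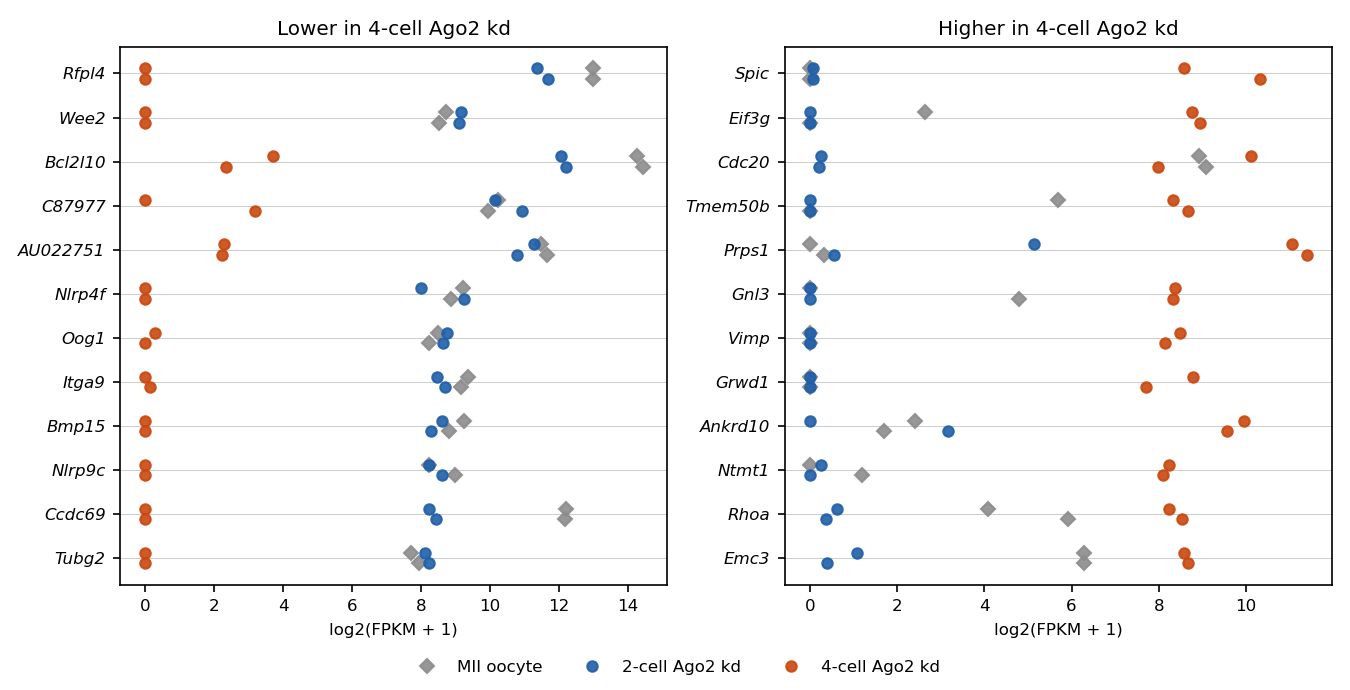
FPKM on the log2(FPKM + 1) scale (x axis) of the 12 genes with the largest called fall (left) and rise (right) from 2-cell (blue circles) to 4-cell Ago2 kd embryos (orange circles), with MII oocytes as grey diamonds; each point is 1 library. On the left the 4-cell libraries lie far below the 2-cell libraries, as for Wee2 with 0 and 0 against 572 and 556 FPKM, and on the right they lie far above them.

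Promoters of a transcript of each kind are shown to place these genes in the genome, 250 bases before and 50 after the RefSeq start on GRCm38.p6. Capitals mark CCAAT (bound by NF-Y), GGGCGG (the GC box of Sp and Klf factors) and TATAAA (the TATA box), searched on both strands. Bmp15 (chrX:6320675-6320974, minus strand) and Btg4 (chr9:51115751-51116050, plus strand) are oocyte genes that fell; Rps15a (chr7:118116098-118116397, minus strand), a protein of the small ribosomal subunit, and Gnl3 (chr14:31019082-31019381, minus strand), nucleostemin, are genes that rose and are described further on.
Bmp15: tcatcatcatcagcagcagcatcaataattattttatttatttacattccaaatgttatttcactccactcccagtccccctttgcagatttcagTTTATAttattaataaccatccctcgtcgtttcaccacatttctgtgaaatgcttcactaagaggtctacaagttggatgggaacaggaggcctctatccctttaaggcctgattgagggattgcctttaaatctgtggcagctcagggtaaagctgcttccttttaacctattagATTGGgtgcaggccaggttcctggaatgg
Btg4: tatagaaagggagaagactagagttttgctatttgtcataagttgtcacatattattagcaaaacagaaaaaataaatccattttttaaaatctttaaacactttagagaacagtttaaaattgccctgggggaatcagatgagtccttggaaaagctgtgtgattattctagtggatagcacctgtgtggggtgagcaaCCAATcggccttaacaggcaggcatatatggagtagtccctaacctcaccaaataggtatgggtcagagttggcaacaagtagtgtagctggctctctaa
Rps15a: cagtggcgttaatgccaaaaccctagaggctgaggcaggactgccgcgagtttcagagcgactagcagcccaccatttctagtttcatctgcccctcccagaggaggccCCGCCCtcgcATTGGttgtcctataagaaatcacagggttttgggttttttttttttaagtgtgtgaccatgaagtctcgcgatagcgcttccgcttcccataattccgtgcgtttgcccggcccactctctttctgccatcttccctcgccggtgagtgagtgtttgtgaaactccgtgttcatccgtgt
Gnl3: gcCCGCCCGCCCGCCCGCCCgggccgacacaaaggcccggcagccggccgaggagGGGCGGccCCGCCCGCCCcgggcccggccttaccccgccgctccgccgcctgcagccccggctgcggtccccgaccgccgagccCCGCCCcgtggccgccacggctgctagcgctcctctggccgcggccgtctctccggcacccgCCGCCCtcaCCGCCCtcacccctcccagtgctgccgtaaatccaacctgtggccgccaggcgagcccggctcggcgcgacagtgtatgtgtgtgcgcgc

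Both fallers held 1 CCAAT match and no GC box, and Bmp15 also held a TATAAA match. Gnl3 held 10 GC box matches, some overlapping each other, and Rps15a held 1 GC box and 1 CCAAT match. This contrast did not extend to the groups. GGGCGG was present in 61% of the 963 promoters matched to higher genes and in 58.1% of the 956 matched to lower genes, beside 63.2% of the 3740 promoters of all genes tested and 35.9% of the 27025 in the table. CCAAT was present in 38.7% and 41%, beside 41.3% of the genes tested and 37.9% of the table. TATAAA was present in 7.89% and 8.47%, beside 7.06% of the genes tested and 14.2% of the table. A match is a run of letters in this window and not an occupied site.

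Counts in the gene lists below stand beside a background of 29.6% of all genes tested that were called higher and 24.6% called lower. Members listed at 0 at the 4-cell stage, among them Zbed3, Bmp15, Zp2, Izumo1r and Nobox, passed the limit on low values only through the 2-cell stage. The counts are therefore of members that passed and are given as a description. Of 8 genes of the subcortical maternal complex, the protein assembly under the oocyte membrane that the embryo needs to cleave, 7 passed the limit on low values, 6 fell and 1 rose, with a median of -4.96 log2 units. Ooep went from 58 and 91.6 to 0.72 and 0.72 FPKM, 104-fold lower (log2 change -5.43, SE 0.50, adjusted p = 0.000245). Zbed3 went from 47.2 and 38.2 FPKM to 0 listed in both 4-cell libraries (adjusted p = 9.79e-05). Both are part of the complex itself and had left the detectable range or nearly so.

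Khdc3, another member, went the other way, from 6.36 and 10.9 to 28.9 and 27.8 FPKM (adjusted p = 0.0361), but was no longer called without any 1 of the 4 libraries (adjusted p up to 0.159) or under any of the 3 other scalings. Padi6 was at 138 and 125 and then at 0.139 and 14.9 FPKM (adjusted p = 0.0332), a call that was lost without 3 of the 4 libraries (adjusted p up to 0.173, without 4-cell Ago2 kd replicate 1).

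Of 13 genes of the zona pellucida, fertilization and oocyte growth factors, 10 were tested and 7 fell, none rose, with a median of -5.39 log2 units. Bmp15 went from 392 and 316 FPKM to 0 listed in both 4-cell libraries (adjusted p = 2.53e-05). Zp2, a zona protein that binds sperm, was at 48.8 and 49.6 and then at 0 and 0 FPKM (adjusted p = 5.21e-05). Izumo1r, the egg receptor for sperm IZUMO1, was at 66.6 and 86 and then at 0 and 0 (adjusted p = 5.03e-05), and Oosp3 was at 190 and 420 and then at 0.376 and 0.185 (adjusted p = 3.88e-05). No 4-cell library reached the lowest 2-cell value in any of these 4 genes.

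Oocyte transcription factors followed the same course, with 4 of the 5 tested members lower and 1 higher (12 listed, median -5.82). Nobox, a homeobox factor of folliculogenesis, had 43.6 and 70.7 FPKM and was then listed at 0 in both (adjusted p = 7.28e-05). Lhx8, a LIM homeobox factor of early oocytes, had 77.8 and 88.1 and then 0 and 1.3 FPKM (adjusted p = 0.000186). Within the Obox homeobox family the members parted: Obox5 had 122 and 175 and Obox7 had 89.5 and 46.2 FPKM and both were listed at 0 at the 4-cell stage, whereas Obox6 had 7.77 and 52.9 and then 522 and 959 FPKM (log2 change 5.03, SE 1.26, adjusted p = 0.0132). The Obox6 call was lost without 2-cell Ago2 kd replicate 1 (adjusted p = 0.0803) or 4-cell Ago2 kd replicate 2 (adjusted p = 0.0691), and copies within the family may share reads.

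Factors that hold maternal mRNAs in store were partly cleared: 3 of 7 tested members fell and none rose (21 listed, 17 in the table, median -2.59). Eif4enif1, which shuttles eIF4E and represses translation, went from 43.2 and 97.3 to 2.6 and 2.19 FPKM, 29.4-fold lower (log2 change -4.28, SE 0.47, adjusted p = 0.000469). Cpeb4, a cytoplasmic polyadenylation element binding protein, went from 33.9 and 73.7 to 4.75 and 11.4 FPKM (adjusted p = 0.00516), and Lsm14b, an RNP granule protein, from 5.61 and 5.92 to 0 listed in both (adjusted p = 0.00294). Zar1, needed for the oocyte-to-embryo transition, was at 1189 and 1538 FPKM in oocytes but at 0.0767 and 5.19 by the 2-cell and 0 and 0 by the 4-cell stage of the Ago2 kd course, so it had been cleared before this interval and was not tested.

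Maternal chromatin and reprogramming factors numbered 8 tested of 20 listed, of which 4 fell and none rose (median -1.91). Npm2, the histone chaperone of the egg, went from 385 and 399 to 27.5 and 29.5 FPKM, 13.8-fold lower (log2 change -3.74, SE 0.27, adjusted p = 0.000104). Zfp57, which protects imprinted methylation, went from 167 and 234 to 33.1 and 20.5 FPKM (adjusted p = 0.00127). H1foo, the oocyte linker histone, was at 229 and 97.6 and then at 0 and 0 (adjusted p = 0.000258). Hsf1, the heat shock factor that the egg supplies, went from 26.9 and 30.1 to 9.8 and 5.75 FPKM (adjusted p = 0.00914).

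Genes of mRNA decay were called in both directions. Of 11 tested deadenylation genes 3 fell, or 5 under each of the 3 other scalings, and 2 rose (22 listed, median -1.07): beside Btg4, Cnot7, a catalytic subunit of CCR4-NOT, went from 143 and 102 to 30.7 and 7.27 FPKM (adjusted p = 0.00734). Its paralog Cnot8 went from 1.17 and 0.928 to 101 and 136 FPKM (log2 change 5.86, SE 0.32, adjusted p = 3.88e-05) and Btg1 from 0.777 and 0.699 to 5.97 and 6.66 FPKM (adjusted p = 0.00483). Cnot6l, another catalytic subunit, was at 36.8 and 12.7 and then at 0.144 and 0.0936 FPKM, with a call (adjusted p = 0.0256) that was lost without any of 3 of the libraries (up to 0.13, without 2-cell Ago2 kd replicate 1). Cnot7 thus fell while Cnot8 rose, from a 2-cell Ago2 kd level far below the 195 and 140 FPKM of 2-cell controls. Beside 24.6% lower and 29.6% higher of all genes tested, 3 and 2 of 11 are not read as a property of the machinery.

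Of 13 tested genes of decapping, 5-prime decay, uridylation and m6A reading, 4 rose and 2 fell (29 listed, median 0.82, and 0.53 without 2-cell Ago2 kd replicate 1). Dcp2, the decapping enzyme, went from 34.7 and 56.6 to 1.86 and 7.1 FPKM (adjusted p = 0.00279). Ythdf3, an m6A reader, went from 98.9 and 41 to 0 listed in both (adjusted p = 0.0026). In controls Ythdf3 was listed at 0 in both 2-cell libraries and had 10 and 0 FPKM at the 4-cell stage. Zfp36, an AU-rich element binding decay factor, rose from 3.79 and 3.57 to 18.9 and 15.3 FPKM (adjusted p = 0.00289), and Lsm5 was at 0 and 0 and then at 5.34 and 4.07 (adjusted p = 0.00123). The small rises of Xrn1 (0.372 and 0.411 to 1.08 and 2.06 FPKM) and Zcchc11 (0.283 and 1.21 to 4.59 and 2.81 FPKM) lost their call without 3 and 2 of the libraries, with adjusted p up to 0.0818 and 0.131. In the microRNA and RNA interference list, 13 of 15 genes were in the table and only Tnrc6b, a GW182 partner of Argonautes, passed the limit: it was at 4.31 and 5.42 and then at 0 and 0 FPKM (adjusted p = 0.0008).

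Among meiotic and M-phase genes, 13 of 20 tested members were not called, with 3 higher, or 5 without 4-cell Ago2 kd replicate 1, and 4 lower (27 listed, median 0.79, and 0.42 without 4-cell Ago2 kd replicate 2). Fbxo43, the inhibitor of the anaphase-promoting complex that holds the egg in metaphase, went from 97.1 and 72.2 to 1.88 and 0.869 FPKM (adjusted p = 0.000359), and Cdc25b, the phosphatase of meiotic resumption, from 112 and 112 to 11.7 and 9.88 FPKM (adjusted p = 0.000441). Cdc20, an activator of the same complex, went from 0.192 and 0.165 to 1099 and 251 FPKM (log2 change 8.80, SE 1.62, adjusted p = 0.00355). Cdc25a, the phosphatase of the early mitotic cycles, went from 2.8 and 0.0496 to 32.3 and 24.3 FPKM (adjusted p = 0.0028). Ccnb2 was at 7.07 and 8.13 and then at 0 and 0 (adjusted p = 0.0327), a call lost without any 1 library (up to 0.111). Mos, the meiotic kinase, was already at 1.38 and 2.32 FPKM and then at 4.39 and 2.95 (adjusted p = 0.321).

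In the list of Zscan4 and other 2-cell burst genes, 19 of 38 were tested, 8 fell and 3 rose (median -1.22). Tcstv1 went from 90.9 and 69.5 to 3.1 and 1.85 FPKM, 32.4-fold lower (log2 change -4.56, SE 0.37, adjusted p = 0.000145). Oocytes already held 71.6 and 81.5 FPKM of Tcstv1, which falls in cluster II of maternal mRNAs. Tmem92 went from 100 and 58.6 to 2.46 and 2.19 FPKM (adjusted p = 0.00211), Usp17lc from 22.1 and 21.6 to 0 and 0.229 (adjusted p = 8.78e-05), and Pramef6 from 12.2 and 16.4 to 0 and 0 (adjusted p = 0.00261). Pramel6 was at 8.22 and 12.5 and then at 112 and 182 FPKM (adjusted p = 0.0105) and Tdpoz2 at 3.62 and 6.83 and then at 20 and 24 (adjusted p = 0.0476). The Pramel6 call was lost without 2 of the libraries (up to 0.0573) and that of Tdpoz2 without any 1 (up to 0.194), and without 2-cell Ago2 kd replicate 1 none of the 3 rises in the list was called, and without 4-cell Ago2 kd replicate 2 only 1 was. Tcstv1, Usp17lc, Pramef6, Pramel6 and Tdpoz2 belong to multicopy families in which reads cannot be assigned to 1 copy with certainty.

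Smaller lists held further fallers. Of 7 tested interferon-stimulated genes of 28, 5 fell and 1 rose (median -2.51), and 4 of the 5 were oligoadenylate synthetase genes of the Oas1 and Oas3 kind: Oas1d went from 287 and 386 to 5.8 and 0 FPKM (adjusted p = 0.000597), Oas1e from 254 and 294 to 1.19 and 2.3 (adjusted p = 0.000285) and Oas1c from 261 and 259 to 0 and 0 (adjusted p = 1.04e-05). Oas1d and Oas1e were also abundant in oocytes, at 4781 and 4877 and at 1148 and 2257 FPKM. Of 15 tested histone rows 8 fell and 3 rose (70 in the table, median -0.85), led by Hist1h2aa, a germ cell H2A, at 6.86 and 11.2 and then 0.161 and 0 FPKM (adjusted p = 0.00095); replication-dependent histone copies are near-identical. Without 2-cell Ago2 kd replicate 1 the rises numbered 1, and without 4-cell Ago2 kd replicate 2 the falls numbered 5. In the sperm list, 2 of 10 genes passed the limit and both fell: Odf2, also a centrosomal gene, from 24.6 and 41.9 to 0.193 and 0.0856 FPKM (adjusted p = 0.0121, up to 0.0618 without 1 library) and Prm2 from 1.78 and 1.44 to 0.392 and 0.114 FPKM (adjusted p = 0.00614). Prm1, named after its values were seen, was listed at 0 or at 0.125 FPKM in the Ago2 kd libraries, while both genes that fell were present in oocytes, Odf2 at 72.7 and 41.5 and Prm2 at 1.09 and 1.21 FPKM.

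Among the genes that rose, nucleolar, ribosomal and mitochondrial genes were frequent. Spic, an ETS factor related to PU.1, had the largest change, from 0.0498 and 0.0444 to 383 and 1274 FPKM (log2 change 9.38, SE 2.32, adjusted p = 0.0123), but its call was lost without 3 of the libraries (up to 0.0671). Prps1, the enzyme that makes the ribose donor of nucleotide synthesis (chrX:140456613-140476140), went from 34.4 and 0.475 to 2118 and 2693 FPKM, 138-fold higher (log2 change 8.37, SE 1.26, adjusted p = 0.00157). Gnl3 (chr14:31012433-31019152) and Grwd1 (chr7:45825223-45830944), both of the nucleolus, were listed at 0 in both 2-cell libraries and then had 329 and 319 and 439 and 207 FPKM (adjusted p = 0.00507 and 0.000789).

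Ankrd10 went from 0 and 7.93 to 985 and 749 FPKM (adjusted p = 0.00162), Rhoa, the small GTPase of cytokinesis, from 0.549 and 0.285 to 298 and 371 FPKM (adjusted p = 0.00517), and Emc3, a subunit of the membrane protein insertase of the endoplasmic reticulum, from 1.13 and 0.312 to 382 and 404 FPKM (adjusted p = 3.88e-05). Eif3g, Tmem50b and Vimp were listed at 0 in both 2-cell libraries and had between 279 and 488 FPKM at the 4-cell stage. Ntmt1, a protein N-terminal methyltransferase, had 0.194 and 0 and then 300 and 273 FPKM (adjusted p = 0.000126).

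Cytoplasmic ribosomal proteins had 81 rows in all, of which 46 were tested, and 35 rose while none fell, with a median of 3.0 log2 units. Rps15a (chr7:118104372-118116188) was at 0 and 0 and then at 69.2 and 58.4 FPKM (adjusted p = 7.51e-05). Rps3 went from 7.03 and 5.98 to 351 and 501 FPKM (log2 change 5.81, SE 1.32, adjusted p = 0.00871) and Rps26 from 0 and 5.84 to 85.3 and 136 (adjusted p = 0.00302). Rps3a3, at 0.602 and 3.44 and then 118 and 401 FPKM (adjusted p = 0.000707), is a processed pseudogene in the annotation, near-identical to the parent gene. The count was 25 to 30 when 1 library was left out.

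Ribosome biogenesis and RNA polymerase I genes gave 20 rises and no fall among 31 tested (58 listed, median 2.90). Nob1, the nuclease that completes 18S rRNA, went from 0.536 and 0.876 to 119 and 103 FPKM, 157-fold higher (log2 change 6.04, SE 0.36, adjusted p = 5.68e-05). Ddx21, a nucleolar helicase, was at 0 and 0 and then at 85.4 and 33.4 FPKM (adjusted p = 0.000173), and Utp15, a subunit of the small subunit processome, at 0 and 0 and then at 34.5 and 68 (adjusted p = 0.000116). Without 2-cell Ago2 kd replicate 1 the count was 13. The ribosomal RNA rows, of which 6 of 11 were tested, rose in 4: Gm26917 from 5.63 and 3.16 to 737 and 411 FPKM (adjusted p = 0.000205), AY036118 from 227 and 287 to 3567 and 7517 (adjusted p = 0.00284), Gm42418 from 0.136 and 0.0254 to 13.4 and 16.1 (adjusted p = 0.00568), and Rn7s2 from 0.519 and 0.152 to 4.11 and 2.94 (adjusted p = 0.037, up to 0.145 without 1 library). Gm26917, Gm42418 and AY036118 lie in repeats of the rRNA locus, where the number of mapped reads depends on how repeats were handled.

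Translation initiation factors showed 10 rises and 1 fall among 27 tested (42 listed, median 2.18). Eif3e was listed at 0 in both 2-cell libraries and then had 147 and 264 FPKM (adjusted p = 0.000121), Eif2s1, the alpha subunit of eIF2, had 0 and 0 and then 92.3 and 166 (adjusted p = 0.000363), and Eif4a2, an eIF4A helicase, had 0.788 and 1.05 and then 119 and 183 (log2 change 6.28, SE 0.53, adjusted p = 0.000173). Eif1b fell from 89.6 and 139 to 26.2 and 38.5 FPKM (adjusted p = 0.00901). Splicing factors showed 10 rises and no fall among 25 tested (43 listed, median 1.53), with Snrpa1 going from 0.175 and 1.7 to 98.3 and 277 FPKM (adjusted p = 0.00164) and Snrpb, a core Sm protein, from 3.53 and 6.4 to 239 and 277 FPKM (adjusted p = 0.00157).

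Of 30 tested proteasome genes of 42, 12 rose and 3 fell (median 1.34), with 5 falls under each of the 3 other scalings or without 4-cell Ago2 kd replicate 2. The proteasome median was 0.50 without that library and 2.15 without 4-cell Ago2 kd replicate 1. Psma6, a subunit of the 20S core, was at 0 and 0 and then at 136 and 210 FPKM (adjusted p = 9.11e-05), and Psmd14, the deubiquitinase of the lid, went from 2.18 and 0.0963 to 176 and 295 FPKM (log2 change 6.94, SE 0.80, adjusted p = 0.000594). Psmd9, an assembly chaperone, fell from 115 and 92.6 to 18.6 and 13.6 FPKM (adjusted p = 0.000618), as did Psmd10, another assembly chaperone, from 32.8 and 32.9 to 6.7 and 7.29 (adjusted p = 0.0116). Chaperones gave 6 rises, a share close to the 29.6% of all genes tested, and 1 fall among 20 tested of 24. Their median of 1.15 was 0.49 and 1.94 without 2-cell Ago2 kd replicates 1 and 2, and 2.73 and 0.42 without 4-cell Ago2 kd replicates 1 and 2. The chaperonin subunit Tcp1 went from 0.944 and 2.41 to 206 and 187 FPKM (adjusted p = 0.00143), and Dnajb1, a heat shock target, from 138 and 138 down to 42.3 and 34.4 FPKM (adjusted p = 0.00206).

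Mitochondrial transcripts rose from both genomes. Of 31 tested mitochondrially encoded genes 20 rose and none fell (37 in the table, median 1.85). mt-Rnr2, the 16S rRNA, went from 986 and 1602 to 8249 and 15644 FPKM, 9.23-fold higher (log2 change 3.18, SE 0.54, adjusted p = 0.00259). mt-Rnr1, the 12S rRNA, went from 90.5 and 226 to 596 and 2271 FPKM (adjusted p = 0.0106, lost without 2-cell Ago2 kd replicate 1 or 4-cell Ago2 kd replicate 2, up to 0.0665). These rises numbered 9 without 2-cell Ago2 kd replicate 1 and 10 without 4-cell Ago2 kd replicate 2. Of 45 tested nuclear genes of oxidative phosphorylation (76 in the table), 21 rose and 2 fell (median 1.47, and 0.87 without 4-cell Ago2 kd replicate 2). Leaving out 2-cell Ago2 kd replicate 1 or 4-cell Ago2 kd replicate 2 gave 11 rises, and leaving out 4-cell Ago2 kd replicate 1 gave 28. Ndufb7 of complex I went from 0.88 and 0 to 27.8 and 55.3 FPKM (adjusted p = 0.000329) and Uqcrb of complex III from 0.873 and 0.921 to 20.8 and 48.7 (adjusted p = 0.00131). The 2 fallers, Cox6a2 and Cox6b2, are tissue-restricted isoforms of complex IV subunits, and Cox6b2 went from 7.25 and 14.3 to 0.212 and 0.351 FPKM (adjusted p = 0.00211). Mitochondrial ribosomal proteins gave 25 rises and no fall among 54 tested (74 in the table, median 1.81), and 16 and 15 rises without 2-cell Ago2 kd replicate 1 and 4-cell Ago2 kd replicate 2. Mrpl43 went from 1.76 and 3.52 to 45.2 and 118 FPKM (adjusted p = 0.000914) and Mrpl12 from 5.33 and 14.3 to 122 and 152 (adjusted p = 0.00177).

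Cell proliferation and metabolism lists were mixed. DNA replication genes gave 8 rises, the same share as among all genes tested (29.6%), and 3 falls among 27 tested of 45 (median 0.49, and 0.92 without 4-cell Ago2 kd replicate 1). The rises numbered 5 without 2-cell Ago2 kd replicate 1 or 4-cell Ago2 kd replicate 2. There was 1 fall without 2-cell replicate 2 or 4-cell replicate 1 and there were 5 without 4-cell replicate 2. Gins1, part of the replicative helicase (chr2:150905400-150931280), went from 3.9 and 5.81 to 89.3 and 159 FPKM (log2 change 4.38, SE 0.44, adjusted p = 0.000329), and Cdc6, a licensing factor, from 2.19 and 10.6 to 100 and 48.7 (adjusted p = 0.00561). Rpa3, the small subunit of replication protein A, fell from 44.7 and 89.5 to 2.06 and 5.19 FPKM (adjusted p = 0.000927), while Rpa2, the middle subunit, was at 0.143 and 38.9 and then at 425 and 310 (adjusted p = 0.0115, 0.0536 without 4-cell Ago2 kd replicate 1). Of 15 tested genes of glycolysis, pyruvate use and the TCA cycle (35 listed) 2 rose and 4 fell, and the median of 0.08 turned to between -0.23 and -0.17 under the 3 other scalings, and to -0.40 without 2-cell Ago2 kd replicate 1 and -0.20 without 4-cell Ago2 kd replicate 2. The falls numbered 1 without 2-cell Ago2 kd replicate 1 and 2 without replicate 2 of that group. Idh3b, a subunit of isocitrate dehydrogenase, went from 0.163 and 0.0127 to 19.7 and 27.7 FPKM (adjusted p = 0.000289). Cs, citrate synthase, went from 94.3 and 47.5 to 0 listed in both (adjusted p = 0.00836). In controls Cs was listed at 0 in both 2-cell libraries and had 11.8 and 1.42 FPKM at the 4-cell stage.

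In the list of pluripotency and first-lineage factors 17 of 37 were tested, 8 rose and 3 fell, beside 29.6% and 24.6% of all genes tested (median 1.38, and 2.20 without 4-cell Ago2 kd replicate 1). Sox15 (chr11:69655314-69656727), an HMG box factor, went from 0 and 4.93 to 243 and 196 FPKM (log2 change 6.49, SE 0.95, adjusted p = 0.00145). Klf5, which acts in the inner cell mass and trophectoderm, went from 1.01 and 3.76 to 55.3 and 17.4 FPKM (adjusted p = 0.00449) and Klf9 from 0.524 and 0.439 to 55.4 and 15.4 (adjusted p = 0.00247). Wwtr1, the Hippo effector TAZ, went from 1.01 and 2.23 to 47.7 and 19.3 FPKM, 20.7-fold higher (log2 change 3.63, SE 0.55, adjusted p = 0.0016). Yy1, a ubiquitous zinc finger factor, went from 1.2 and 0.747 to 16.5 and 26.8 FPKM (adjusted p = 0.00111).

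Pou5f1 (Oct4), a regulator of pluripotency (chr17:35506018-35510772), went the other way, from 134 and 77.1 to 7.39 and 6.01 FPKM, 15.7-fold lower (log2 change -3.74, SE 0.38, adjusted p = 0.000376). Pou5f1 falls in cluster II of maternal mRNAs and also fell in controls, from 52.3 and 62.4 to 23.1 and 18.5 FPKM (adjusted p = 0.0196). Its difference between the 2 courses was not called (adjusted p = 0.106). Sall4, a zinc finger partner of Pou5f1, went from 30.7 and 3.85 to 0.0929 and 0.0878 FPKM (log2 change -3.51, SE 0.78, adjusted p = 0.00822). Tead4, the trophectoderm factor that pairs with TAZ and YAP, was listed at 0 in all 4 Ago2 kd libraries and had 16.5 and 40.1 FPKM in 4-cell controls. Yap1 stayed below 1 FPKM in every library. Neither was tested.

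Genes of p53 signalling and cell death gave 6 rises and 3 falls among 18 tested of 30 (median 0.33, 0.01 to 0.07 under the other scalings, 0.75 and 0.06 without 2-cell Ago2 kd replicates 1 and 2, and 0.12 without 4-cell Ago2 kd replicate 2). Bax, the pro-apoptotic pore protein, went from 6.44 and 15.1 to 52.7 and 104 FPKM (adjusted p = 0.00343) and Sesn1, a p53-induced sestrin, from 3.75 and 2.79 to 28.7 and 21.9 FPKM (adjusted p = 0.00209). Mcl1, which counters apoptosis, was at 0 and 4.6 and then at 62.9 and 56.7 FPKM (adjusted p = 0.00417), and Gadd45b, a stress-induced gene, at 0 and 0 and then at 70.5 and 24.7 (adjusted p = 0.00632). Bcl2l10 and Atf3 were among the fallers, Atf3 at 10.5 and 3.53 and then 0 and 0 FPKM (adjusted p = 0.00429). Control embryos showed the same number of rises in this list, 6, and 5 falls. In the compaction and junction list, 7 of 29 genes were tested, with 2 rises and 3 falls (median -1.09, and -0.40 and -1.78 without 2-cell Ago2 kd replicates 1 and 2), and Gja1, connexin 43, went from 0 and 2.77 to 102 and 161 FPKM (adjusted p = 0.000657). Pard3, Pard6b, Cldn4 and Cldn6 were called in this list but lost the call without at least 2 of the libraries, with adjusted p up to 0.128, 0.0818, 0.188 and 0.162.

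**Figure D2:**
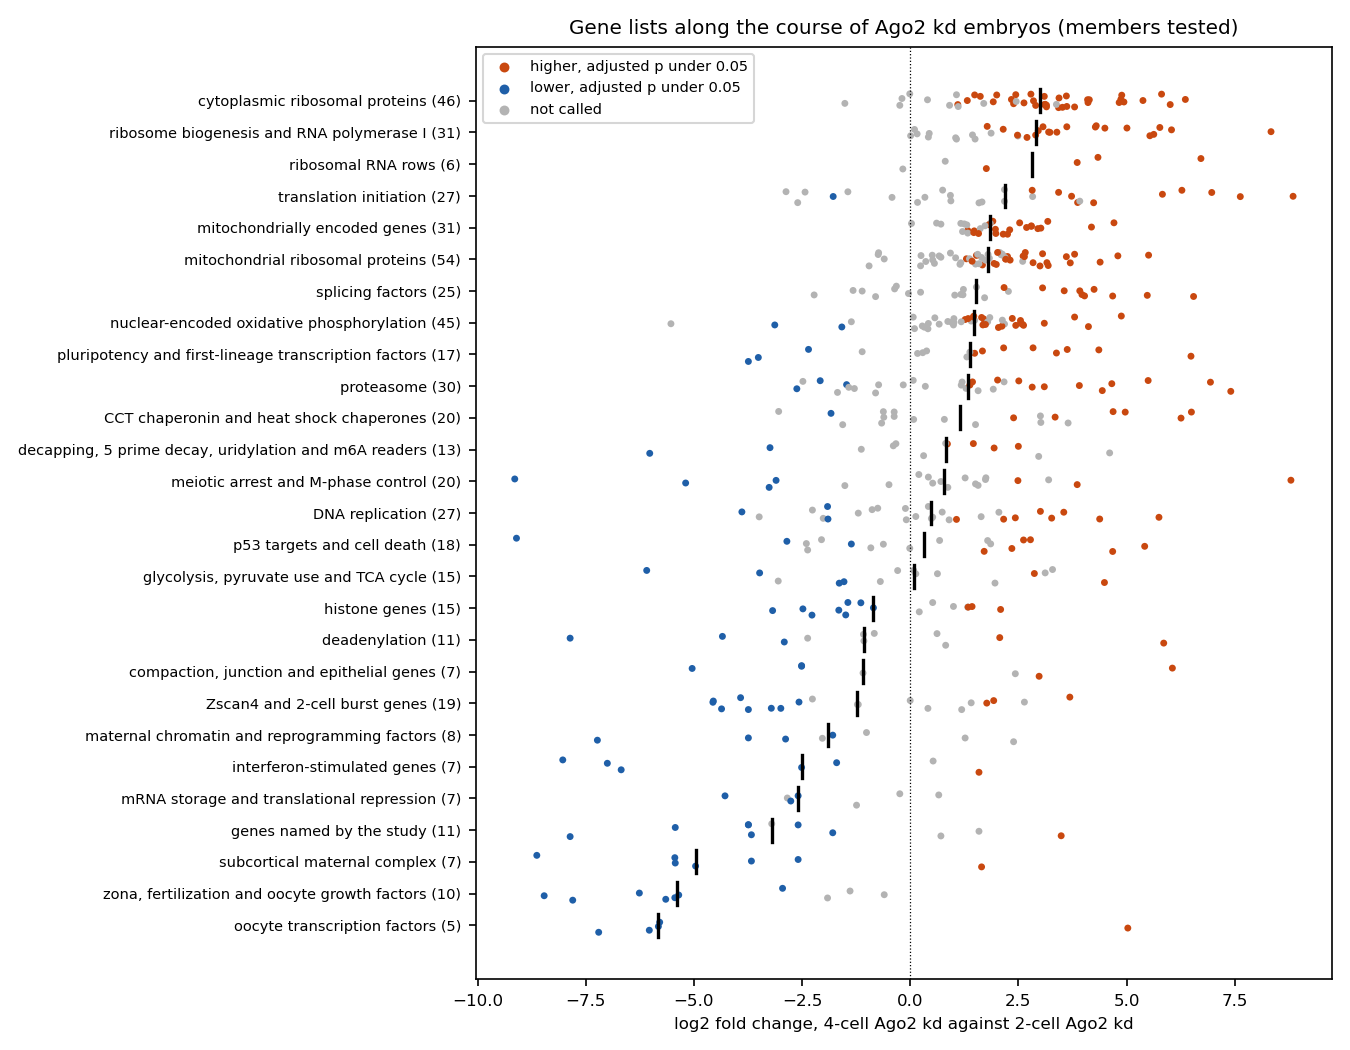
Log2 fold change of 4-cell against 2-cell Ago2 kd embryos (x axis) for the tested members of each gene list with at least 5 of them; each point is a gene, orange if it rose, blue if it fell and grey if it was not called, and the black bar is the list median. Lists of oocyte genes lie at the bottom, down to a median of -5.82 for oocyte transcription factors, and cytoplasmic ribosomal proteins at the top, with a median of 3.0.

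Annotation classes, looked at after the values were known, divided in the same contrast. Of 853 processed pseudogenes tested, 403 rose (47.2%) and 141 fell (16.5%), beside 26.3% and 25.3% of 4547 protein-coding genes. Reads of a parent gene can map to such copies. Of 102 long intergenic noncoding genes 59 fell (57.8%) and 21 rose (20.6%), and of 48 snoRNA genes 17 rose (35.4%) and 2 fell (4.17%). In control embryos the shares were 37.7% and 17.4% for processed pseudogenes, 15.7% and 54.9% for long intergenic noncoding genes, and 35.4% and 4.17% for snoRNA genes, in the order higher and lower.

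Set against oocytes, clearance and activation in Ago2 kd embryos drew on different stocks. Of the genes that fell, 1192 (79.2%) had been maternal, meaning over 2 FPKM on average in the oocytes, beside 59.6% of all genes tested; of those that rose, 679 (37.4%) were maternal. Among the 1192 maternal fallers, 641 (53.8%) were still within 1 log2 unit of the oocyte level in 2-cell Ago2 kd embryos, 424 (35.6%) had already dropped by more than 1 unit, and 127 were above it. These shares were 46.7% and 43.5% among all 3651 maternal genes tested. By the 4-cell stage 1137 of them (95.4%) lay more than 1 log2 unit below the oocyte, beside 55.9% of all maternal genes tested, a share that the choice of fallers raises. Among the 679 maternal genes that rose, 352 (51.8%) were more than 1 log2 unit below the oocyte at the 2-cell stage, as Cdc20 was, which had 482 and 539 FPKM in oocytes before 0.192 and 0.165 at the 2-cell stage. At the 4-cell stage 439 of the 679 (64.7%) exceeded the oocyte level by more than 1 unit, beside 20.1% of all maternal genes tested, a share that the choice of risers raises. These steps share the 2-cell Ago2 kd libraries with the tested contrast and are given as a description.

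Classes of genes were then defined on oocytes and control embryos alone, so that Ago2 kd levels did not enter them. The calls in Ago2 kd embryos still used a spread pooled over all 10 libraries, those of the classes included. Cluster II, maternal mRNAs stable to the 2-cell stage and then cleared in controls, held 909 genes of which 797 were tested: 551 fell in Ago2 kd embryos (69.1%, beside 24.6% of all genes tested) and 4 rose, and their median level went from 4.21 to 1.25 on the log2(FPKM + 1) scale. Of these 797, 322 were below 1 FPKM in both 4-cell Ago2 kd libraries and 311 had at least 1 FPKM in both. Cluster III, cleared at both steps in controls, held 693 genes with 577 tested: 401 fell (69.5%) and 1 rose, with a median change of -2.66. Cluster I, cleared in controls by the 2-cell stage, held 1101 genes with 479 tested, of which 93 fell (19.4%) and 43 rose (median -0.26). Transiently expressed 2-cell genes, up from oocyte to 2-cell control and then down, held 717 genes with 471 tested, and 249 fell (52.9%).

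Genes that controls activate from the 2-cell to the 4-cell stage were 2223 without maternal supply and 1344 with it. Of 1224 tested genes without maternal supply, 855 rose in Ago2 kd embryos (69.9%, beside 29.6% of all genes tested) and 4 fell, and their median level went from 0.92 to 3.71 on the log2(FPKM + 1) scale. Of 1080 tested genes with maternal supply, 544 rose (50.4%) and 13 fell. Of the 1224 genes 517 passed the limit through the 4-cell stage only, and 322 of the 797 of cluster II, 247 of the 577 of cluster III and 181 of the 471 transient 2-cell genes passed through the 2-cell stage only. These shares are therefore of the genes that passed and not of whole classes.

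**Figure D3:**
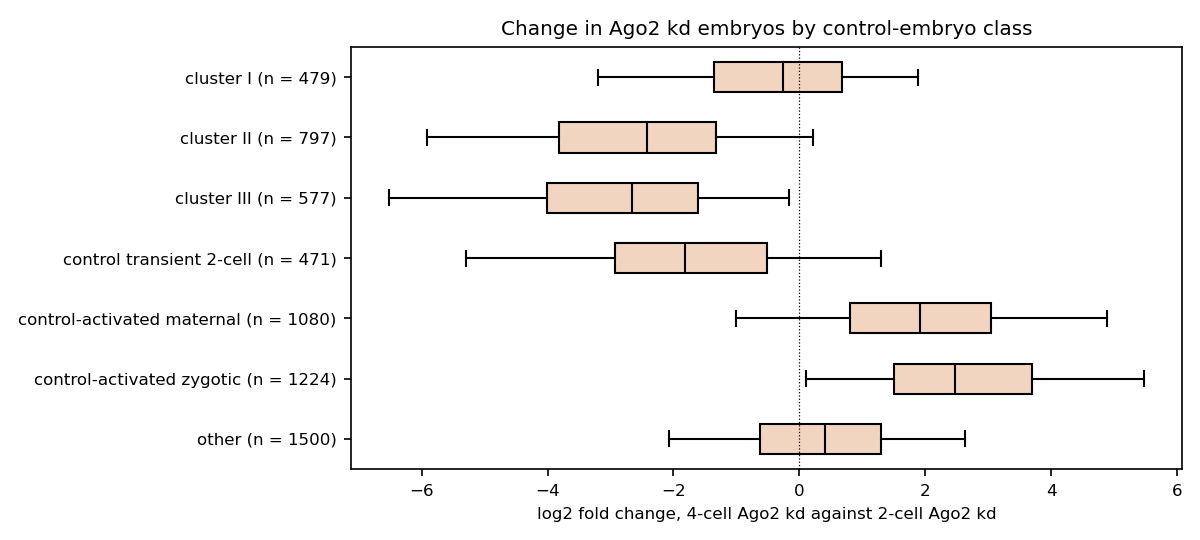
Log2 fold change of 4-cell against 2-cell Ago2 kd embryos (x axis) by class of gene, where classes were set on MII oocytes and control embryos; boxes are quartiles, the bar is the median, whiskers reach the 5th and 95th percentiles of genes, and n is the number tested. Cluster II (median -2.42) and cluster III (-2.66) lie to the left and both control-activated classes (1.91 and 2.47) to the right of the other genes (0.41).

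Control embryos showed the same overall course over the same interval. Their group means came from libraries other than the Ago2 kd ones, but both comparisons used 1 spread pooled over all 10 libraries. Shared calls are therefore not independent of each other. Of the same 6128 genes 1501 were higher (24.5%) and 1411 lower (23%) in 4-cell controls. Of the 1816 genes that rose in Ago2 kd embryos, 1166 (64.2%) were also called higher in controls, 10 were called lower and 640 were not called; of the 1505 that fell, 1144 (76%) were also called lower, 7 higher and 354 not. The log2 changes of Ago2 kd and control embryos correlated with r = 0.818 and rho = 0.809 across genes, a description in which genes are not replicates. Cytoplasmic ribosomal proteins had a median of 3.0 in Ago2 kd and 1.95 in control embryos, mitochondrially encoded genes 1.85 and 0.65, ribosomal RNA rows 2.81 and -0.13, and 2-cell burst genes -1.22 and -2.85, on the log2 scale, and these differences between medians were not tested as such.

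The test of the difference itself, the change in Ago2 kd minus that in control embryos, called 48 genes higher (0.783%) and 54 lower (0.881%). These numbers depended on single libraries, being 22 and 27 without 2-cell Ago2 kd replicate 1, 34 and 36 without replicate 2 of that group, 79 and 62 without 4-cell Ago2 kd replicate 1, and 83 and 107 without replicate 2 of that group. Since genes had to be present in Ago2 kd embryos, those missing from them entered only with the limit taken over all 10 libraries, where 56 were higher and 143 lower. By class, 12 of the more positive and 4 of the more negative changes were in clusters II and III, and 5 and 27 in the control-activated classes. The classes were chosen for a fall or a rise in the same control libraries that enter the difference, so this skew is built in by the choice and nothing is read from it.

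**Figure D4:**
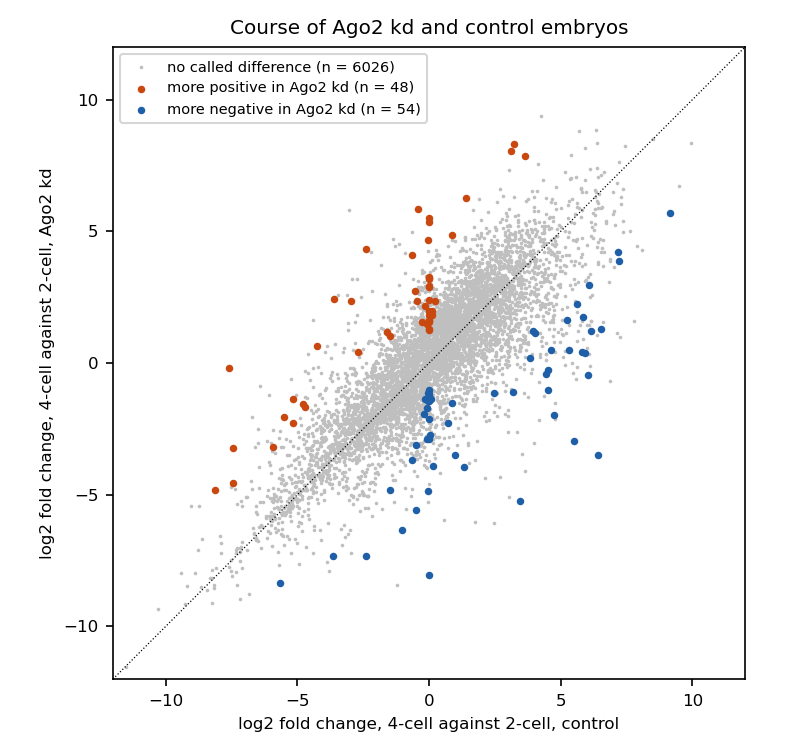
Log2 fold change from the 2-cell to the 4-cell stage in control (x axis) and Ago2 kd embryos (y axis) for the 6128 genes tested, each point a gene. The 48 genes in orange and 54 in blue are those whose change differed between Ago2 kd and control embryos, and the dotted line marks equal change.

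Cnot8 had the clearest detour of the decay genes. It was at 308 and 260 FPKM in oocytes and at 195 and 140, then 134 and 115 in control embryos, whereas in Ago2 kd embryos it was at 1.17 and 0.928 at the 2-cell stage and at 101 and 136 at the 4-cell stage, so that its rise there was a return to the control level (difference 6.27, SE 0.45, adjusted p = 0.00224). Pdpk1, the kinase that activates AKT, went from 7.92 and 19.7 to 0.0923 and 0.144 FPKM in controls and from 0.583 and 0.573 to 8.71 and 6.5 in Ago2 kd embryos (difference 6.04, SE 0.67, adjusted p = 0.0113). Kat6b, a histone acetyltransferase, went from 4.44 and 13.8 to 0.0591 and 0.22 FPKM in controls and from 1.87 and 2.38 to 16 and 14.4 in Ago2 kd embryos (difference 5.35, SE 0.77, adjusted p = 0.0252, lost without either 2-cell Ago2 kd library, up to 0.0773). For Pdpk1 and Kat6b, maternal genes of clusters III and II, the groups were thus ordered in opposite ways in the 2 kinds of embryo.

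Mrpl27 and Fancm were listed at 0 in 8 of the 10 libraries and appeared only in the 4-cell Ago2 kd group, with 39.3 and 50.3 FPKM and with 35 and 44.3 FPKM (adjusted p of the difference 0.00148 for each). Vimp was at 22.9 and 46.6 FPKM in 2-cell controls against 0 and 0 in 2-cell Ago2 kd embryos, and at 284 to 350 and 279 to 355 FPKM in the 4-cell embryos of both kinds (adjusted p = 0.0126). Rnf138, a ubiquitin ligase of DNA repair in cluster II, fell in both courses but to 0 and 0 FPKM in controls and to 9.93 and 13.2 in Ago2 kd embryos, from 34.6 and 34.5 and from 27.4 and 34.5 (difference 3.80, SE 0.48, adjusted p = 0.0175). Leaving out 2-cell Ago2 kd replicate 1 took the difference of Rnf138 to an adjusted p of 0.0519, and leaving out replicate 2 took its fall in Ago2 kd embryos to 0.0568.

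Of the cluster II rows, Rn18s-rs5 and AY036118 of the rRNA locus differed most. Not all rows of this locus did so. Gm26917 rose in controls as well, from 2.05 and 1.67 to 1163 and 3576 FPKM, and its difference was not called (-2.77, SE 0.83, adjusted p = 0.195). Rn18s-rs5 was at 1723 and 1919 and then at 4.7 and 14.7 FPKM in controls, but at 756 and 1434 and then at 423 and 2018 in Ago2 kd embryos (difference 7.41, SE 1.10, adjusted p = 0.0279). AY036118 was at 333 and 539 and then at 34.1 and 189 FPKM in controls, against the rise described above (difference 6.71, SE 1.07, adjusted p = 0.0336). Both lost the call without either 2-cell Ago2 kd library, with adjusted p of 0.0601 to 0.0948 for Rn18s-rs5 and 0.0778 to 0.108 for AY036118, which also lost it without 4-cell Ago2 kd replicate 2 (0.065). The share of structural RNA rows rose in the same libraries, as given above. The part of RNA composition in these 2 differences was not tested.

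In the other direction Sall4 led. It went from 0.337 and 0.197 to 105 and 110 FPKM in controls, the mirror image of its fall in Ago2 kd embryos (difference -9.93, SE 1.11, adjusted p = 0.0113). Csrnp2 was at 0 and 0 and then at 5.56 and 17.6 FPKM in controls, and at 32.8 and 39.8 and then at 0 and 0 in Ago2 kd embryos (adjusted p = 0.00425). Nrf1, the nuclear respiratory factor that binds promoters of mitochondrial genes, went from 1.43 and 0.515 to 69.3 and 106 FPKM in controls and from 30.1 and 36.4 to 3.69 and 3.1 in Ago2 kd embryos (difference -8.46, SE 0.61, adjusted p = 0.00224). These 3 genes were higher in 2-cell Ago2 kd than in any 2-cell control library and lower in 4-cell Ago2 kd than in any 4-cell control library.

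Oas1c was listed at 0 in 8 libraries and was present in the 2-cell Ago2 kd group alone, at 261 and 259 FPKM (adjusted p = 0.000874), and its neighbours in the Oas1 cluster share sequence with it. Tbc1d20 went from 0.0373 and 0.0441 to 17.7 and 39.8 FPKM in controls and from 1.58 and 5.65 to 0.0524 and 0.049 in Ago2 kd embryos (difference -6.71, SE 0.98, adjusted p = 0.0266, up to 0.0624 without 1 library). The fall of Tbc1d20 in Ago2 kd embryos (adjusted p = 0.0454) was lost without 3 of the libraries, with adjusted p up to 0.217. Dtl, the substrate receptor that degrades licensing factors in S phase, went from 0.973 and 0.203 to 110 and 90.8 FPKM in controls and from 2.54 and 2.45 to 1.84 and 1.32 in Ago2 kd embryos, where it was not called (adjusted p = 0.375; difference -6.48, SE 0.55, adjusted p = 0.00425).

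**Figure D5:**
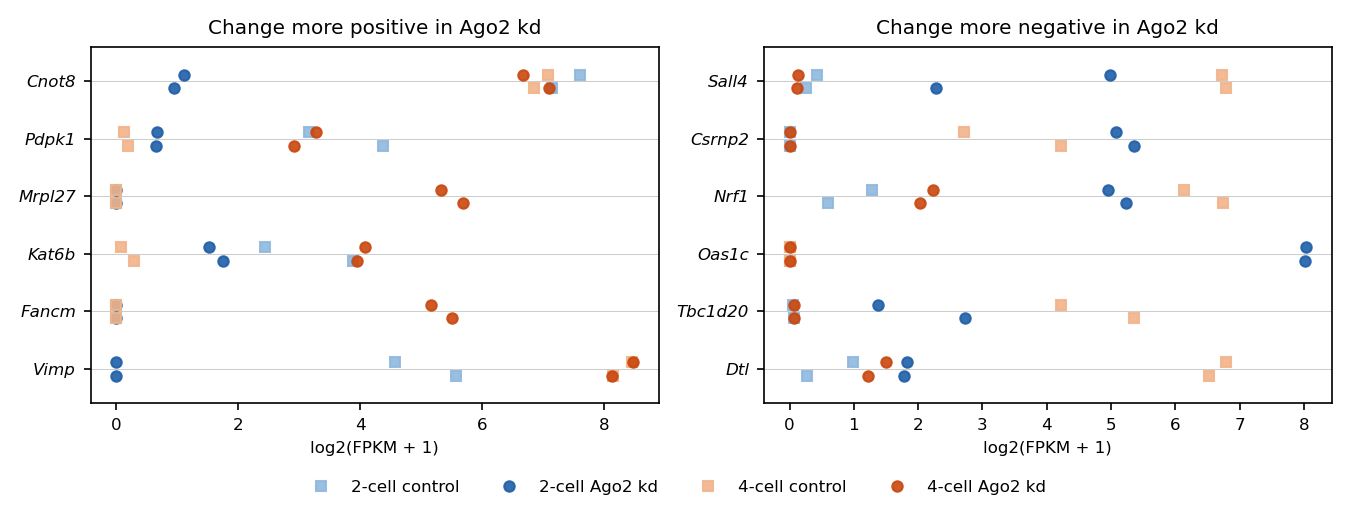
FPKM on the log2(FPKM + 1) scale (x axis) in the 8 embryo libraries for the 6 genes with the largest called difference of each sign between the Ago2 kd and control course; light squares are control and dark circles Ago2 kd embryos, blue at the 2-cell and orange at the 4-cell stage, and each point is 1 library. Sall4 runs from 0.337 and 0.197 up to 105 and 110 FPKM in controls and from 30.7 and 3.85 down to 0.0929 and 0.0878 in Ago2 kd embryos.

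Some activation seen in controls left no trace in the Ago2 kd table. Of all 21437 genes, 52 were above 10 FPKM in both 4-cell controls and listed at 0 in both 4-cell Ago2 kd libraries, and 34 of these were also at 0 in both 2-cell Ago2 kd libraries and so were never tested. The reverse pattern, above 10 FPKM in both 4-cell Ago2 kd libraries and at 0 in both 4-cell controls, held for 7 genes. The 52 and the 7 are not weighed against each other. Replicate 1 of the 4-cell Ago2 kd group was near 0 for 14.6% of the genes over 10 FPKM in replicate 2, a larger share than in any other library. Named after their values were seen, Klf2, a pluripotency factor, had 86.6 and 63.8 FPKM in 4-cell controls, and Bbc3, the p53 target PUMA, had 12.1 and 10.1. Tead4 belongs to the same 34, as does H3f3a, also named after its values were seen, a replacement histone that most cells express, so a zero in these rows can also be a failed estimate.

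Of 17 genes in a list drawn up from the original article, 11 were tested, 7 fell and 1 rose. Their median was -3.20 log2 units against -3.54 in controls. The text of that article does not name all of them, and Tle6 is 1 that it does not name. Some are named there from earlier work and others from these samples, so the direction is no independent evidence. Beside Btg4, Ooep, Npm2, Hsf1 and Pou5f1, Nlrp5 fell from 4.87 and 6.21 to 0.0634 and 0.102 FPKM (adjusted p = 0.00316), and Tle6 from 49.4 and 7.52 to 0.696 and 0.551 (adjusted p = 0.00872). Spin1, a meiotic spindle gene, was at 509 and 187 and then at 43.5 and 24.4 FPKM (adjusted p = 0.0613), and Eif4g1 at 0.109 and 3.4 and then at 3.32 and 9.19 (adjusted p = 0.348). Of the 6 that were not tested, Dcp1a had 77 and 0 and then 0 and 0 FPKM in Ago2 kd embryos, Brip1 was at most 0.366 and Zfp277 was listed at 0, while Zar1, Yap1 and Tead4 are given above.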

How the data were processed

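RNA-seq libraries of 5 groups, 2 per group, were assigned by their labels, which give stage, control or Ago2 kd, and replicate number; ages in hours were taken from the article. The authors trimmed reads with Trim Galore, aligned them to GRCm38 (mm10 in the submitters' processing notes, with CASAVA 1.4, HISAT2 2.1.0 and StringTie) and deposited FPKM from StringTie, 1 value per gene name and library. Without read counts the authors' DESeq2 test was not repeated, and depth is unknown. How several transcripts were reduced to 1 row is not given in the sources used here.

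FPKM were analysed as log2(FPKM + 1) with limma 3.58.1 in R 4.3.3, with 1 mean per group, all 10 libraries (5 residual degrees of freedom) and trended empirical Bayes (median prior degrees of freedom 2.17). Genes with 1 FPKM or more in at least 2 of the 4 Ago2 kd libraries were tested, two-sided, with Benjamini-Hochberg adjustment over all of them and a threshold of 0.05. An exact permutation test of 2 against 2 libraries cannot go below 0.333 and was not used. The script was tested on simulated data, where 103 of 200 genes changed by 3 log2 units were called. Those data had normal noise without exact zeros, and only 200 of 6128 genes changed. The share of changed genes missed in the real data is therefore not known from them. A gene that was not called is not shown to be unchanged. Positions and biotypes came from GENCODE M21 by name (5908 of 6128 genes tested), promoters from RefSeq on GRCm38.p6 (3740 matched).

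Classes used a mean above 2 FPKM in MII oocytes and steps of 1 log2 unit, after the Methods; the stated limits of cluster II cannot both be met, so it was taken as a step within 1 unit from oocyte to 2-cell control. Members and gene lists were chosen with earlier results of these data known. Lists are described by counts and medians. Named were, per direction, the 12 largest called changes with at least 5 FPKM in both libraries of the higher group. Gm, Rik and ribosomal RNA rows were left out of these 12. Up to 4 called members of each list in the more frequent and 2 in the other direction were also named. Added to them were the 6 largest called differences from controls per direction and the 5 largest positive ones in clusters II and III. The last were genes of the list drawn up from the article. Folds are ratios of group means. Alternatives were a pseudocount of 0.1, other filters and scalings, the replicate number as a block, only the libraries compared, and leaving out each library. Figures were drawn with matplotlib 3.10.9.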

Additional observations from a re-analysis of the deposited data

Results flagged for a closer look

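The change from the 2-cell to the 4-cell stage differed between Ago2 kd and control embryos, by the test of the difference itself, in 48 genes with a more positive and 54 with a more negative change in Ago2 kd embryos. Differences below are on the log2(FPKM + 1) scale, Ago2 kd minus control.

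Among the leading risers of Ago2 kd embryos the difference was 5.07 for Vimp, 4.94 for Ntmt1 and 4.23 for Emc3, all of which were higher in 2-cell controls than in 2-cell Ago2 kd embryos. The call of Ntmt1 was lost without any 1 of the 4 Ago2 kd libraries (adjusted p 0.073 to 0.117 by limma) and that of Emc3 without 2-cell Ago2 kd replicate 2 (0.0515). The leading faller Ccdc69 had a difference of -2.68, with 5.36 and 7.06 FPKM left in 4-cell controls and 0 and 0 in 4-cell Ago2 kd embryos, and lost its call without 2-cell Ago2 kd replicate 1 (0.0545) or 2 (0.056). Cnot8 (6.27) and Eif4a2 (4.87) were low in 2-cell Ago2 kd embryos alone. Cnot8 kept its call without any 1 library, whereas Eif4a2 lost it without 3 of the 4 (up to 0.0948).

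Mrpl27 (5.51) and Fancm (5.34) were present in 4-cell Ago2 kd embryos alone and Oas1c (-8.03) in 2-cell Ago2 kd embryos alone. Pdpk1 (6.04) and Kat6b (5.35) fell in controls and rose in Ago2 kd embryos, and Rnf138 (3.80) fell less far in Ago2 kd embryos. The rRNA rows Rn18s-rs5 (7.41) and AY036118 (6.71) fell in controls and did not fall in Ago2 kd embryos. Sall4 (-9.93), Csrnp2 (-8.68), Nrf1 (-8.46) and Tbc1d20 (-6.71) rose in controls and fell in Ago2 kd embryos, where the fall of Tbc1d20 was lost without 3 of the 4 libraries (up to 0.217), and Dtl (-6.48) rose in controls only, with the difference tested as given.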

How the results depend on the processing

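The 1816 genes higher and 1505 lower in Ago2 kd embryos, and the 6 counts by class, stayed within 1.5 times of their values under every alternative. The calls numbered 1269 to 1681 higher and 1214 to 1337 lower when 1 library was left out, 1402 and 1277 with only the 4 Ago2 kd libraries, and 1632 and 1676 after scaling to the same sum, and the share of calls that were higher was 49.3% to 56.5%. Counts of the difference from controls moved more. The 48 more positive changes became 26 with the replicate block, 21 with only the 8 embryo libraries, 512 at an unadjusted p, and 22 to 83 without 1 library. The 54 more negative ones became 143 with the limit over 10 libraries, 25 with the replicate block, 29 with only the 8 embryo libraries, 380 at an unadjusted p, and 27 to 107 without 1 library. The 25 and 26 follow from a block on a number that samples only share: deviations of same-numbered libraries correlated by -0.1 to 0.104 (0.0981 between the 2-cell and 4-cell Ago2 kd groups). Fewer libraries leave fewer degrees of freedom; the other causes were not tested. Of 165 named genes tested, none that was called in the main fit reversed its direction under an alternative. The direction of uncalled genes was not scored. Without a filter 27 lost their call, and of 19 named differences 8 did with only the 8 embryo libraries. Calls were also lost when 1 library was left out. More genes lost theirs without 2-cell Ago2 kd replicate 1 or 4-cell Ago2 kd replicate 2 than without a filter. With 2 libraries per group and unknown depth, a zero cannot be told from a failed estimate.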
